A study of Mus musculus with 18 samples.

Results

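The genes described here are 10 cytokine and chemokine genes that B cells can express: *Il10*, *Il6*, *Tgfb1*, *Tnf*, *Lta*, *Ltb*, *Ccl3*, *Ccl4*, *Ccl22* and *Cxcl10*. They were chosen by name from a list of secreted mediators, all 10 were found among the 16545 genes of the expression table by their NCBI gene IDs, and none was left out by a filter on low values. RNA was sequenced from splenic B cells of C57BL/6 mice that lacked *Zbtb24* in the B lineage (B-CKO) and of control mice, before and after culture with lipopolysaccharide (LPS), a component of the outer membrane of Gram-negative bacteria that B cells sense through TLR4. There were 3 libraries in each of 6 groups, at 0 h, 24 h and 48 h (day 0, 1 and 2 in the sample labels), and each library came from 1 mouse. B-CKO mice carried a Cre allele active in the B lineage and loxP-flanked alleles of *Zbtb24*, which encodes a zinc finger transcription factor. Control mice are labelled only as such, and the methods of the study name littermates with the same Cre allele and wild-type *Zbtb24* as its controls unless stated otherwise. The cells were enriched and sorted as total splenic B cells, and neither the age of these mice nor the LPS dose is given in the sources used here. Values are in FPKM (fragments per kilobase of transcript and per amount of mapped fragments in the library), so levels of different genes are compared per length of transcript.

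B cells are best known for antibodies, but they also secrete mediators that act on T cells, myeloid cells and the stroma of lymphoid organs. IL-10 and TGF-β1 restrain immune responses, and B cells that make IL-10 are often called regulatory B cells, whereas IL-6 and TNF promote inflammation. Lymphotoxin α and β form a membrane complex on B cells that signals to stromal cells and follicular dendritic cells and maintains the architecture of the spleen. The chemokines CCL3 and CCL4 attract T cells and monocytes, CCL22 attracts T cells that carry CCR4, and CXCL10, an interferon-inducible chemokine, attracts T cells that carry CXCR3. Several of these genes are classical targets of NF-κB, the transcription factor family activated downstream of TLR4.

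The libraries were checked against their labels first. *Zbtb24* was at 37.05 to 49.62 FPKM in the control and 10.53 to 14.33 FPKM in the B-CKO libraries at 0 h. It was at 15.68 to 18.77 against 10.39 to 11.66 FPKM at 24 h and at 13.42 to 17.11 against 9.23 to 11.34 FPKM at 48 h, without overlap at any time. On the log2 scale this was a difference of -1.78 (limma adjusted p = 0.120), -0.64 (limma adjusted p = 0.0586) and -0.50 (limma adjusted p = 0.267), so that the lower level did not pass the threshold across all genes. The B cell genes *Cd79a* (641.54 to 2270.40 FPKM) and *Ms4a1* (432.06 to 632.24 FPKM) were high in all 18 libraries. Libraries at 0 h stood apart from the cultured ones in their spread, with a median SD between replicates of 0.171 in control and 0.159 in B-CKO cells on the log2 scale, against 0.0537 to 0.0849 at 24 h and 48 h. The summed level of 16 immediate early genes was 4154 to 5967 FPKM at 0 h and 355.9 to 519.8 FPKM later, and the part of this difference in the results was not tested. Across all genes at 0 h, libraries with the same replicate number deviated together from their group means in both genotypes.

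The sequences upstream of the genes with the largest changes are shown so that their NF-κB sites can be seen beside the expression values. They are the 250 bases before the start site listed in the RefSeq promoter table on GRCm38.p6, the assembly also named mm10, written 5′ to 3′ on the strand of the gene. Capitals mark matches to the NF-κB consensus on either strand. Promoters of 8 of the 10 genes were found in the RefSeq table, without *Il10* and *Ccl4*.
*Il6*, chr5:30012864-30013113, plus strand: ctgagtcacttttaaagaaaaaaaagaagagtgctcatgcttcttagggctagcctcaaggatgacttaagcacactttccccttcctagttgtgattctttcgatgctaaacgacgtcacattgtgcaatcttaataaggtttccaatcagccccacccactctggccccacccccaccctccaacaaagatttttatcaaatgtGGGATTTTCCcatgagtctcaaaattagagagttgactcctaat
*Ccl22*, chr8:94745434-94745683, plus strand: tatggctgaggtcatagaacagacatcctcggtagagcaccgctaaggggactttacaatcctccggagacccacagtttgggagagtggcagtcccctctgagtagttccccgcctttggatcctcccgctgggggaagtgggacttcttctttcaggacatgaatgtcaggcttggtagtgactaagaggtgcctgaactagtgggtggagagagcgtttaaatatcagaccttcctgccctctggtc
*Cxcl10*, chr5:92348890-92349139, minus strand: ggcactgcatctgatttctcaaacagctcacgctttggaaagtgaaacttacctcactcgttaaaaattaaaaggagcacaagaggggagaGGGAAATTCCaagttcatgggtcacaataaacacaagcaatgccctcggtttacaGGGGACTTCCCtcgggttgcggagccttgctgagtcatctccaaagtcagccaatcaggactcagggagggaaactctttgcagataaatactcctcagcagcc
*Ltb*, chr17:35194257-35194506, plus strand: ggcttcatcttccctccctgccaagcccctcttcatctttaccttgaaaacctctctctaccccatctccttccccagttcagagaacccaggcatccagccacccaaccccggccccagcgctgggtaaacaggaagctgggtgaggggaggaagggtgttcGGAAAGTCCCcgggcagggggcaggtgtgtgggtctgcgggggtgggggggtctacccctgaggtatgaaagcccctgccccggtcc
*Ccl3*, chr11:83649379-83649628, minus strand: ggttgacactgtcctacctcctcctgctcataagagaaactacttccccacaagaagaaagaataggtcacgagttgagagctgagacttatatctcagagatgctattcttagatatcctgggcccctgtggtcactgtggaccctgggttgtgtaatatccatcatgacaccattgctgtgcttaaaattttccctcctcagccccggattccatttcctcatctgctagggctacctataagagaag
The *Il6* window held 1 match to the consensus, whose first base lies 44 bases before the start, the *Ltb* window held 1 at 87 bases, and the *Cxcl10* window held 3, of which those at 104 and 103 bases overlap and that at 159 bases stands alone. The windows of *Ccl22*, *Ccl3*, *Tnf* and *Lta* held none of these letters, and that of *Tgfb1* held 1 at 140 bases. Of 27025 promoters of the same length in the RefSeq table, 7.01% held such a match. An AP-1 element (TGANTCA, either strand) was found 249 bases before the *Il6* start and 74 bases before the *Cxcl10* start, which overlaps no NF-κB match, in none of the other 6 windows, and in 6.87% of all promoters. A TATA box (TATAAA, either strand) was found 29 bases before the *Tnf* start and in the *Lta* window, which lies partly within the wider RefSeq span of *Lta*, in none of the other 6 windows, and in 13% of all promoters. Of the 13151 promoters of genes in the expression table, 8.55% held an NF-κB match, 5.05% an AP-1 element and 8.33% a TATA box. These matches describe letters of the reference only.

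The 10 genes changed in the same direction in both genotypes after 24 h of culture with LPS. No library came from cells cultured without LPS, so the effects of LPS and of culture cannot be told apart. Each of the 10 passed the test between 0 h and 24 h in control and in B-CKO cells: *Il10*, *Il6*, *Tnf*, *Ccl22* and *Cxcl10* rose, and *Tgfb1*, *Lta*, *Ltb*, *Ccl3* and *Ccl4* fell. Expression was tested with limma on log2(FPKM + 1) over all genes above 0 FPKM in any compared library, and a gene was called at a Benjamini-Hochberg adjusted p under 0.05. Changes at this step were common, since 26.7% of 15531 genes were called higher and 30.7% lower in control cells, and 27.5% of 15551 genes were called higher and 32.3% lower in B-CKO cells. The 3 libraries at 24 h did not overlap with those at 0 h for any of the 10 genes in either genotype. The share of all genes without such overlap was not counted at this step, so the lack of overlap is not shown to be particular to the 10. The median log2 fold change of the 10 genes was 0.30 in control and 0.21 in B-CKO cells, beside -0.022 and -0.021 over all genes tested. From 24 h to 48 h, 3 of the 10 rose and 5 fell in control cells, beside 20.1% of 15178 genes called higher and 24.8% called lower, and 3 rose and 4 fell in B-CKO cells, beside 21.7% of 15253 genes called higher and 24% called lower. As these are bulk libraries, fewer cells that express a gene and less RNA per cell cannot be told apart.

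**Figure D1:**
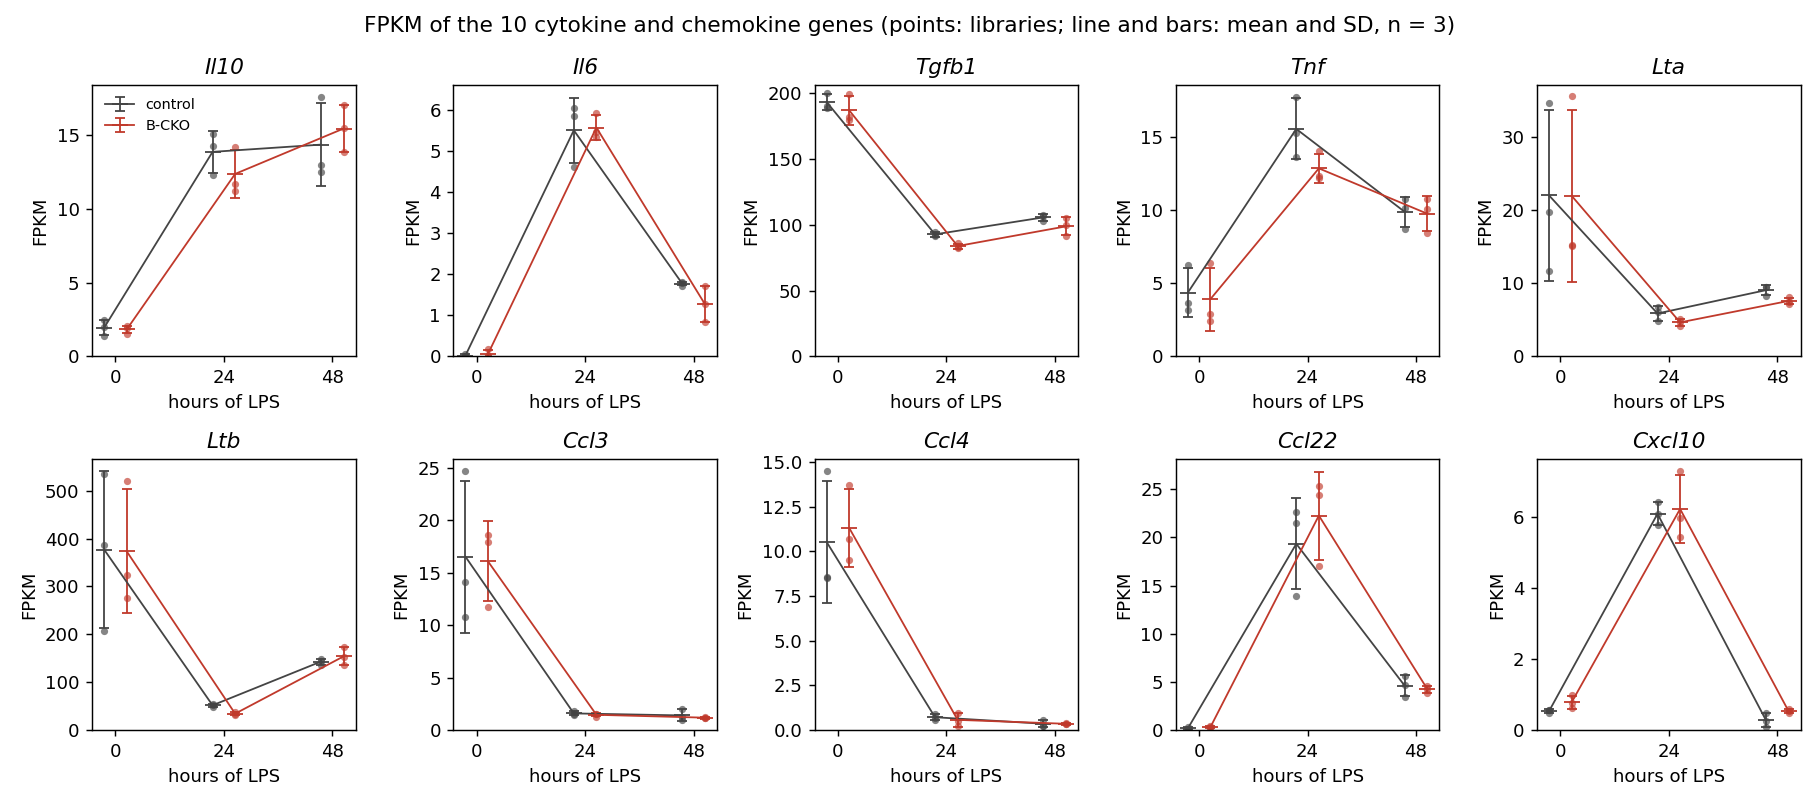
FPKM of each gene (vertical axes, linear from 0) against hours of LPS for control (grey) and B-CKO (red) libraries; points are single libraries and lines with bars are the mean and SD of 3. *Il6*, *Tnf*, *Ccl22* and *Cxcl10* are highest at 24 h, *Il10* stays up at 48 h (12.46 to 17.56 FPKM), and *Ltb*, *Lta* and *Tgfb1* are lowest at 24 h.

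*Il10*, which encodes the main anti-inflammatory cytokine of B cells, rose in culture with LPS and stayed high. At 0 h, *Il10* was at 1.41, 2.45 and 1.98 FPKM in the control and 1.55, 1.91 and 2.03 FPKM in the B-CKO libraries (replicates 1, 2 and 3). At 24 h it was at 15.04, 12.27 and 14.21 FPKM in control cells and 11.20, 14.20 and 11.65 FPKM in B-CKO cells. At 48 h it was at 12.46, 12.97 and 17.56 FPKM in control cells and 15.43, 13.81 and 17.01 FPKM in B-CKO cells. All libraries of cultured cells were above all resting ones, and at each time the genotypes overlapped. The mean rose 7.11-fold in control cells between 0 h and 24 h (log2 fold change of FPKM + 1 of 2.34, SE 0.16, limma adjusted p = 5.33e-05) and 6.75-fold in B-CKO cells (2.24, SE 0.13, limma adjusted p = 1.75e-05). Between 24 h and 48 h the log2 fold change was 0.036 in control (95% interval -0.28 to 0.36, limma adjusted p = 0.852) and 0.30 in B-CKO cells (95% interval 0.050 to 0.55, limma adjusted p = 0.0544). This B-CKO value passed the threshold with a pseudocount of 0.1 FPKM, after removal of genes with a mean under 1 FPKM, with scaling by the median ratio, and without B-CKO replicate 2 at 24 h or at 48 h. It missed the threshold in the other 7 of 12 alternatives, with the replicate block among them (limma adjusted p = 0.123). A difference of the 2 genotypes in this change was not detected (0.26, limma adjusted p = 0.818). Of 11 genes used to mark B cells competent for IL-10, 4 rose and 6 fell from 0 h to 24 h in control cells, where 26.7% of all genes were called higher and 30.7% lower, and none was called between genotypes.

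*Tgfb1*, which encodes TGF-β1, was a highly expressed gene throughout and fell in culture with LPS. At 0 h it was at 200.35, 188.91 and 190.60 FPKM in control cells and 181.58, 179.83 and 199.53 FPKM in B-CKO cells, above 98.2% and 98.1% of all genes. At 24 h the values were 92.61, 91.21 and 94.54 FPKM in control cells and 86.10, 82.60 and 82.96 FPKM in B-CKO cells, so that each B-CKO library was below each control library. At 48 h they were 106.66, 107.67 and 102.68 FPKM in control cells and 99.93, 91.54 and 105.08 FPKM in B-CKO cells, and the genotypes overlapped. The mean was 2.08-fold lower at 24 h than at 0 h in control cells (log2 fold change -1.05, SE 0.048, limma adjusted p = 1.30e-05) and 2.23-fold lower in B-CKO cells (log2 fold change -1.15, SE 0.057, limma adjusted p = 1.14e-05). It rose again by 0.19 in control (limma adjusted p = 0.00286) and 0.23 in B-CKO cells (limma adjusted p = 0.0109) from 24 h to 48 h on the log2 scale. Its level at 48 h was below that at 0 h in every library.

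*Il6*, which encodes a cytokine that supports plasma cells and T follicular helper cells, was near 0 in resting cells and transient in culture. At 0 h it was listed at 0, 0 and 0.06 FPKM in control cells and 0, 0 and 0.18 FPKM in B-CKO cells, so that no fold change in FPKM is given for the rise. At 24 h it was at 4.61, 5.87 and 6.06 FPKM in control cells and 5.93, 5.47 and 5.34 FPKM in B-CKO cells. At 48 h it was at 1.79, 1.81 and 1.73 FPKM in control cells and 1.72, 1.27 and 0.85 FPKM in B-CKO cells. Each B-CKO library at 48 h was thus below each control library, by 0.01 FPKM for the closest pair, whereas the genotypes overlapped at 24 h. On the scale of log2(FPKM + 1), *Il6* rose by 2.67 in control (SE 0.11, limma adjusted p = 9.61e-06) and 2.64 in B-CKO cells (SE 0.096, limma adjusted p = 4.39e-06) to 24 h. It fell by 1.22 in control (limma adjusted p = 0.000147) and fell by 1.55 in B-CKO cells (limma adjusted p = 0.000177) from 24 h to 48 h.

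The genes of the TNF family lie beside each other within 11.1 kb of chromosome 17 (*Ltb* at 35194507 to 35196305 on the plus strand, *Tnf* at 35199367 to 35202007 and *Lta* at 35203165 to 35205578 on the minus strand of GRCm38), and they moved apart in culture with LPS. *Tnf*, the gene of the inflammatory cytokine TNF, rose. At 0 h *Tnf* was at 6.28, 3.66 and 3.16 FPKM in control cells and 6.39, 2.92 and 2.45 FPKM in B-CKO cells. At 24 h it was at 17.75, 15.27 and 13.61 FPKM in control cells and 14.01, 12.20 and 12.34 FPKM in B-CKO cells. At 48 h it was at 10.15, 10.75 and 8.74 FPKM in control cells and 8.42, 10.08 and 10.76 FPKM in B-CKO cells. Cultured libraries were above all those of 0 h, and the genotypes overlapped at each time. Its mean rose 3.56-fold in control (log2 fold change 1.66, SE 0.23, limma adjusted p = 0.00103) and 3.28-fold in B-CKO cells (1.58, SE 0.28, limma adjusted p = 0.00314) to 24 h. *Tnf* then fell by 0.60 in control (limma adjusted p = 0.00406) and fell by 0.37 in B-CKO cells (limma adjusted p = 0.0181) on the log2 scale. The fall in B-CKO cells missed the threshold with the replicate number as a block (limma adjusted p = 0.0610), in a single fit of all 18 libraries (limma adjusted p = 0.307) and without B-CKO replicate 1 at 24 h (limma adjusted p = 0.0684). The fall in control cells missed it in 1 of 12 alternatives (limma adjusted p = 0.0862).

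*Lta* and *Ltb*, which encode the subunits of membrane lymphotoxin, fell from 0 h to 24 h and rose from 24 h to 48 h. At 0 h *Lta* was at 34.67, 19.76 and 11.69 FPKM in control cells and 35.60, 15.13 and 15.24 FPKM in B-CKO cells. At 24 h it was at 6.11, 6.76 and 4.79 FPKM in control cells and 4.70, 5.12 and 4.18 FPKM in B-CKO cells, and at 48 h at 9.46, 9.46 and 8.32 FPKM in control cells and 7.22, 8.09 and 7.50 FPKM in B-CKO cells. All cultured libraries were below those of 0 h, and at 48 h each B-CKO library was below each control library. The fall to 24 h was 3.74-fold in control (log2 fold change -1.63, SE 0.37, limma adjusted p = 0.00923) and 4.71-fold in B-CKO cells (log2 fold change -1.91, SE 0.32, limma adjusted p = 0.00238). The later rise of *Lta* was 0.56 in control (limma adjusted p = 0.00735) and 0.60 in B-CKO cells (limma adjusted p = 0.00112) on the log2 scale, and in a single fit of all 18 libraries it missed the threshold in both (limma adjusted p = 0.243 and 0.191).

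*Ltb* had the highest level of the 10 genes in resting cells and the largest range in FPKM. At 0 h *Ltb* was at 535.69, 387.62 and 207.86 FPKM in control cells and 519.79, 324.69 and 275.39 FPKM in B-CKO cells. At 24 h it was at 53.75, 53.67 and 48.76 FPKM in control cells and 38.40, 34.34 and 30.99 FPKM in B-CKO cells, and at 48 h at 136.67, 149.47 and 143.77 FPKM in control cells and 153.33, 135.92 and 173.19 FPKM in B-CKO cells. The 24 h libraries were the lowest in both genotypes and the 48 h libraries lay between, all below those of 0 h. *Ltb* fell 7.24-fold in control (log2 fold change -2.73, SE 0.33, limma adjusted p = 0.000569) and 10.8-fold in B-CKO cells (log2 fold change -3.35, SE 0.23, limma adjusted p = 4.22e-05) to 24 h. At 0 h the 11 T cell markers measured, of a cell type that also expresses lymphotoxin, summed to 29.49 to 43.28 FPKM in control cells and 30.16 to 38.19 FPKM in B-CKO cells, against 10.63 to 17.05 FPKM in all cultured libraries. Without *Lck* the other 10 summed to 11.68 to 21.52 FPKM in control cells and 13.92 to 17.31 FPKM in B-CKO cells at 0 h, against 2.34 to 4.21 FPKM in all cultured libraries. The part of T cells in the fall of *Lta* and *Ltb* was not tested. *Ltb* then rose 2.75-fold in control (log2 fold change 1.44, SE 0.051, limma adjusted p = 1.43e-05) and 4.46-fold in B-CKO cells (2.12, SE 0.11, limma adjusted p = 1.91e-05).

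**Figure D2:**
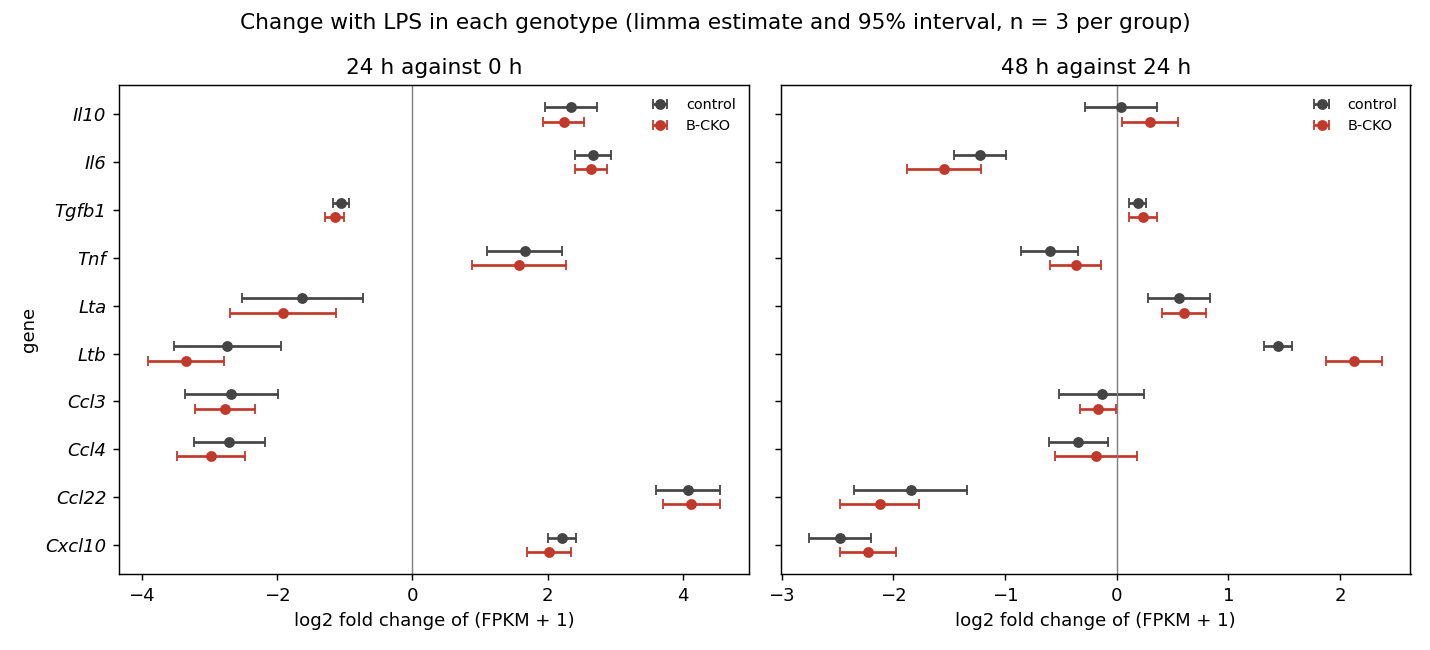
Log2 fold change of FPKM + 1 (horizontal axes) for each gene between consecutive time points in control (grey) and B-CKO (red) cells, as the limma estimate with its 95% interval from 3 libraries per group. The 24 h against 0 h intervals of all 10 genes lie on 1 side of 0 in both genotypes, and from 24 h to 48 h *Ltb* has a rise of 1.44 in control and 2.12 in B-CKO cells.

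At 0 h the libraries numbered 1 were the highest of their genotype for *Ltb*, *Lta* and *Tnf* in both genotypes. The B-CKO to control ratio between libraries of the same number was 0.97, 0.838 and 1.32 for *Ltb*, 1.03, 0.766 and 1.3 for *Lta*, and 1.02, 0.798 and 0.775 for *Tnf*. The spread over numbers was thus wider than the difference between genotypes within a number, as the plot of the TNF family genes at 0 h shows. Without the libraries numbered 1 at 0 h, an alternative chosen after seeing the data, 10 of the 10 genes still passed the test from 0 h to 24 h in each genotype, and *Ltb* changed by -2.43 in control and -3.08 in B-CKO cells and *Lta* by -1.25 and -1.52 on the log2 scale.

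**Figure D3:**
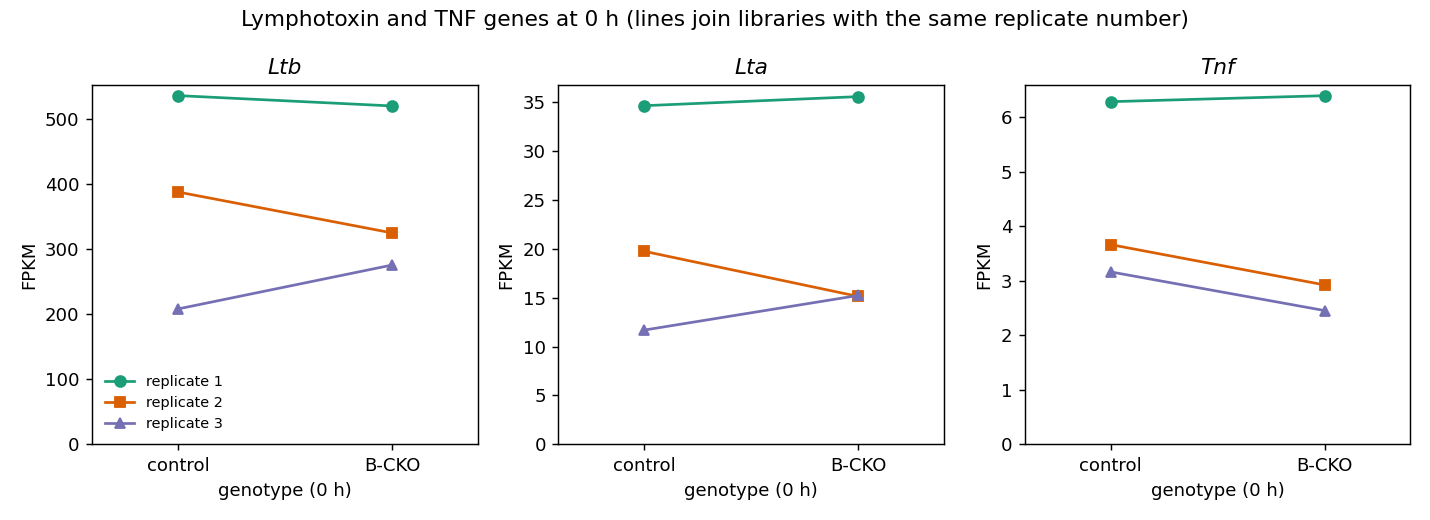
FPKM (vertical axes, linear from 0) of *Ltb*, *Lta* and *Tnf* in resting control and B-CKO cells, with lines that join libraries of the same replicate number. The number 1 libraries are the highest of each genotype for the 3 genes, at 535.69 and 519.79 FPKM for *Ltb*.

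*Ccl3* and *Ccl4*, which encode chemokines for T cells and monocytes, were expressed in resting cells and nearly lost in culture. At 0 h *Ccl3* was at 24.66, 10.79 and 14.14 FPKM in control cells and 17.94, 11.71 and 18.59 FPKM in B-CKO cells, and *Ccl4* was at 14.46, 8.59 and 8.51 FPKM in control cells and 10.70, 9.50 and 13.71 FPKM in B-CKO cells. At 24 h *Ccl3* ranged from 1.47 to 1.81 FPKM in control cells and 1.30 to 1.59 FPKM in B-CKO cells, and *Ccl4* from 0.59 to 0.92 and 0.25 to 0.99 FPKM. At 48 h *Ccl3* ranged from 0.95 to 2.04 FPKM in control cells and 1.12 to 1.30 FPKM in B-CKO cells, and *Ccl4* from 0.25 to 0.58 and 0.33 to 0.42 FPKM. The cultured libraries were all below the resting ones. *Ccl3* fell 10.3-fold in control (log2 fold change -2.68, SE 0.28, limma adjusted p = 0.000325) and 10.9-fold in B-CKO cells (-2.77, SE 0.18, limma adjusted p = 3.32e-05) to 24 h. *Ccl4* fell 14.5-fold in control (-2.70, SE 0.21, limma adjusted p = 9.80e-05) and 19.5-fold in B-CKO cells (-2.97, SE 0.21, limma adjusted p = 4.40e-05). The log2 scale with 1 FPKM added understates such changes of low genes.

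After 24 h these chemokines were too low for finer comparisons. The 12 values of *Ccl4* at 24 h and 48 h lay within 0.0104 FPKM of whole multiples, from 3 to 12, of 0.0832 FPKM, which is how counts of a few fragments would appear. *Ccl4* fell by 0.35 in control cells between 24 h and 48 h on the log2 scale (limma adjusted p = 0.0407), a call that was lost in 8 of 11 alternatives, and the log2 fold change in B-CKO cells was -0.19 (limma adjusted p = 0.378). *Ccl3* did not pass the test in control (log2 fold change -0.13, limma adjusted p = 0.556) or B-CKO cells (-0.17, limma adjusted p = 0.0889) at this step. Without control replicate 2 at 48 h, the change in control cells was -0.32 and passed (limma adjusted p = 0.0440). The genes lie within 16.8 kb of chromosome 11 on opposite strands, *Ccl3* at 83647843 to 83649378 on the minus strand. The RefSeq span of *Ccl4*, from 83648624 to 83664683 on the plus strand, overlaps *Ccl3*, whereas its GENCODE span starts at 83662584. Whether the libraries keep strand is not given in the sources used here, so fragments of the 2 genes may not be fully separated. At 0 h *Prf1*, a cytotoxic gene of NK and T cells, which also express both chemokines, was at 3.05 to 13.56 FPKM, against 0.34 to 1.39 FPKM in cultured cells. The 9 NK cell markers, of which *Prf1* is 1 and makes up much of the sum, summed to 7.53 to 19.22 FPKM at 0 h, 0.66 to 0.88 FPKM at 24 h and 0.97 to 1.60 FPKM at 48 h. Another of them, the NK receptor gene *Ncr1*, was at 0.09 to 0.35 FPKM at 0 h and at 0 in 5 of 6 libraries at 24 h and in 6 of 6 at 48 h. The part of these cells in the fall of *Ccl3* and *Ccl4* was not tested.

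*Ccl22* and *Cxcl10* were induced at 24 h and fell thereafter. *Ccl22* was at 0.10, 0.18 and 0.29 FPKM in control cells and 0.38, 0.18 and 0.42 FPKM in B-CKO cells at 0 h. At 24 h it was at 13.93, 21.47 and 22.63 FPKM in control cells and 17.03, 25.37 and 24.42 FPKM in B-CKO cells, and at 48 h at 4.73, 5.64 and 3.48 FPKM in control cells and 4.64, 3.91 and 4.28 FPKM in B-CKO cells. Among the 10 genes it had the largest rise on the log2 scale, 4.07 in control (SE 0.20, limma adjusted p = 1.52e-05) and 4.12 in B-CKO cells (SE 0.17, limma adjusted p = 6.58e-06), and the 48 h values stayed above all those at 0 h. From 24 h to 48 h it fell by 1.85 in control (limma adjusted p = 0.000570) and fell by 2.12 in B-CKO cells (limma adjusted p = 5.93e-05).

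*Cxcl10* had a shorter course. It was at 0.57, 0.57 and 0.48 FPKM in control cells and 0.62, 0.76 and 0.99 FPKM in B-CKO cells at 0 h, and at 6.09, 6.42 and 5.78 FPKM in control cells and 5.43, 7.29 and 5.98 FPKM in B-CKO cells at 24 h. At 48 h it was at 0.49, 0.10 and 0.26 FPKM in control cells and 0.54, 0.60 and 0.48 FPKM in B-CKO cells, which overlapped with 0 h in control cells and was lower in each library than at 0 h in B-CKO cells. On the log2 scale *Cxcl10* rose by 2.20 in control (SE 0.085, limma adjusted p = 8.65e-06) and 2.01 in B-CKO cells (SE 0.13, limma adjusted p = 3.47e-05), and then fell by 2.48 (limma adjusted p = 3.01e-05) and fell by 2.22 (limma adjusted p = 1.62e-05), respectively.

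The order of the 10 genes by level changed in culture with LPS. In resting control cells *Ltb* (mean 377.06 FPKM) and *Tgfb1* (193.29 FPKM) led, followed by *Lta* (22.04 FPKM), *Ccl3* (16.53 FPKM) and *Ccl4* (10.52 FPKM), of which neighbours overlapped in their ranges. *Tnf* (4.37 FPKM), *Il10* (1.95 FPKM), *Cxcl10* (0.54 FPKM), *Ccl22* (0.19 FPKM) and *Il6* (0.02 FPKM) came next without overlap. At 24 h *Tgfb1* (92.8 FPKM) was above *Ltb* (52.1 FPKM). *Ccl22* (19.3 FPKM), *Tnf* (15.5 FPKM) and *Il10* (13.8 FPKM) followed and overlapped, as did *Cxcl10* (6.10 FPKM), *Lta* (5.89 FPKM) and *Il6* (5.51 FPKM), and the chemokine genes *Ccl3* (1.60 FPKM) and *Ccl4* (0.73 FPKM) were last. At 48 h *Ltb* (143.3 FPKM) led again, *Tgfb1* (105.7 FPKM) was the second and *Il10* (14.3 FPKM) the third without overlap. *Tnf* (9.88 FPKM) and *Lta* (9.08 FPKM) overlapped, and *Cxcl10* (0.28 FPKM) was last with a range that overlapped that of *Ccl4* (0.36 FPKM). In B-CKO cells the order at 0 h was the same, *Il6* and *Lta* changed places at 24 h, and *Ccl4* and *Cxcl10* did at 48 h.

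Whether loss of *Zbtb24* changed these genes was tested at each time point. None of the 10 passed the test at 0 h, 24 h or 48 h. At 0 h, 0 of 15641 genes were called (0%), with 313 at an unadjusted p under 0.05, of which 1 was among the 10, *Cxcl10*. At 24 h, 15 of 15104 genes were called (0.0993%), with 2463 at an unadjusted p under 0.05, of which 3 were among the 10, *Ltb*, *Tgfb1* and *Tnf*. At 48 h, 7 of 15210 genes were called (0.0460%), with 1172 at an unadjusted p under 0.05, of which 2 were among the 10, *Lta* and *Cxcl10*. The 3 B-CKO libraries did not overlap with the 3 control libraries for 1 of the 10 genes at 0 h (*Cxcl10*, higher) where 3.87% of all genes did not overlap. They did not overlap for 2 at 24 h (*Ltb* and *Tgfb1*, lower) where 20.1% did not, and for 2 at 48 h (*Il6* and *Lta*, lower) where 11.1% did not. The median log2 fold change of the 10 genes at 0 h, 24 h and 48 h was 0.025, -0.15 and -0.046, beside -0.001, -0.005 and -0.006 over all genes tested. At 24 h, 7 of the 10 were below 0 and 3 above, whereas at 48 h 6 were below and 4 above.

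**Figure D4:**
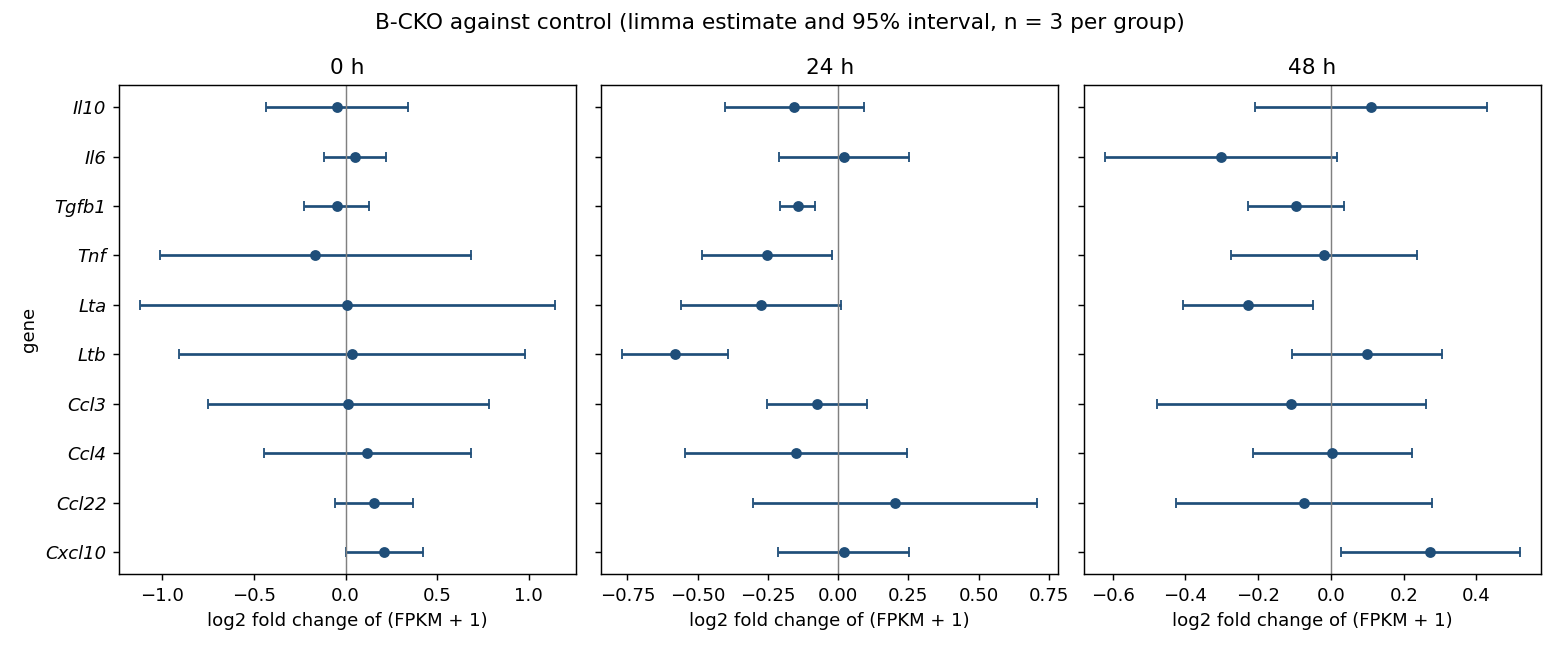
Log2 fold change of FPKM + 1 in B-CKO against control cells (horizontal axes, which differ in range between panels) for each gene at 0 h, 24 h and 48 h, as the limma estimate with its 95% interval from 3 libraries per group. None passes the adjusted threshold, and *Ltb* at 24 h lies farthest from 0, at -0.58.

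*Ltb* at 24 h had the largest genotype difference of the 10 genes on the scale of log2(FPKM + 1), which understates differences of genes at low levels. Its mean was 52.1 ± 2.86 FPKM in control cells and 34.6 ± 3.71 FPKM in B-CKO cells (SD, n = 3), 1.51-fold lower in B-CKO cells, with a log2 fold change of -0.58 (SE 0.078, 95% interval -0.77 to -0.39) and a limma adjusted p = 0.0586. The call depended on the setting: *Ltb* passed with a pseudocount of 0.1 FPKM (limma adjusted p = 0.0470), where 0.305% of 15104 genes were called, and after removal of genes with a mean under 1 FPKM (limma adjusted p = 0.00539), where 4% of 9711 genes were called. It stayed between -0.66 and -0.51 on the log2 scale without any single library. At 0 h the log2 fold change of *Ltb* was 0.035 (95% interval -0.91 to 0.98) and at 48 h it was 0.099 (95% interval -0.11 to 0.31), with overlapping libraries at both times. Its rise from 24 h to 48 h was larger in B-CKO cells by 0.68 on the log2 scale (95% interval 0.39 to 0.96), which did not pass the adjustment over 15844 genes (limma adjusted p = 0.400). Lymphotoxin genes are also expressed by T cells, and the 11 T cell markers summed to 14.49 to 17.05 FPKM in control cells and 11.69 to 13.36 FPKM in B-CKO cells at 24 h. Without *Lck* (8.24 to 13.33 FPKM) the other 10 summed to 3.27 to 3.72 and 3.44 to 4.21 FPKM. The T cell receptor subunit genes *Cd3e*, *Cd3d* and *Cd3g* were at 0 to 0.15, 0.21 to 0.42 and 0.11 to 0.38 FPKM. The 15 myeloid markers summed to 24.14 to 26.65 FPKM in control cells and 19.25 to 19.66 FPKM in B-CKO cells at 24 h. Among them, *Ly6c2* was at 8.93 to 12.45 FPKM in control cells and 5.79 to 6.52 FPKM in B-CKO cells. *Cd68* overlapped, at 2.58 to 3.58 and 3.03 to 3.59 FPKM. Over both genotypes *Itgam* was at 1.80 to 2.82 FPKM, *Adgre1* at 0.97 to 1.99 FPKM, and the monocyte genes *Csf1r* and *Cd14* at no more than 0.03 FPKM. The 12 B cell markers summed to 5632 to 6193 FPKM in control cells and 4871 to 5025 FPKM in B-CKO cells at 24 h, without overlap. The 9 dendritic cell markers overlapped, at 99.59 to 113.96 FPKM in control cells and 96.46 to 108.16 FPKM in B-CKO cells. Without *Bst2* the other 8 were apart the other way, at 7.26 to 8.13 FPKM in control cells and 9.89 to 10.46 FPKM in B-CKO cells. Of these, *Flt3* alone was at 6.39 to 6.77 FPKM in control cells and 8.72 to 9.49 FPKM in B-CKO cells. The part of these marker lists in the *Ltb* difference was not tested.

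The other genes had smaller log2 differences between genotypes on this scale. *Tgfb1* at 24 h had a log2 fold change of -0.14 (SE 0.026, 95% interval -0.21 to -0.081, limma adjusted p = 0.0928), with means of 92.8 ± 1.67 FPKM in control cells and 83.9 ± 1.93 FPKM in B-CKO cells, and passed after removal of genes with a mean under 1 FPKM (limma adjusted p = 0.0439). *Tnf* at 24 h had a log2 fold change of -0.25 (95% interval -0.48 to -0.020, limma adjusted p = 0.272), and *Lta* one of -0.27 (95% interval -0.56 to 0.011, limma adjusted p = 0.323). *Lta* was also lower at 48 h, where its libraries did not overlap, with a log2 fold change of -0.23 (95% interval -0.41 to -0.049, limma adjusted p = 0.503). At 48 h *Il6* had a log2 fold change of -0.30 (95% interval -0.62 to 0.018, limma adjusted p = 0.665), which lay between -0.44 and -0.16 without any single library. *Cxcl10* had a log2 fold change of 0.21 at 0 h (95% interval 0.005 to 0.42, limma adjusted p = 1) and 0.27 at 48 h (95% interval 0.028 to 0.52, limma adjusted p = 0.588), at levels under 1 FPKM in each of these 12 libraries. The pseudocount sets the size of such values, since the mean of *Cxcl10* at 48 h was 1.91-fold higher in B-CKO cells and the log2 fold change with 0.1 FPKM added was 0.87 (limma adjusted p = 0.654). At 24 h, when it was induced, the log2 fold change was 0.020 (95% interval -0.21 to 0.25). For *Il10* the intervals were -0.44 to 0.34 at 0 h, -0.40 to 0.091 at 24 h and -0.21 to 0.43 at 48 h, so that changes of these sizes could not be told from none. *Ccl22* had intervals of -0.059 to 0.37, -0.30 to 0.71 and -0.43 to 0.28 at the 3 times. Those of *Ccl3* and *Ccl4* reached from -0.75 to 0.78 and from -0.45 to 0.68 at 0 h, where the spread was widest.

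A difference of the LPS response between genotypes was not detected for any of the 10 genes. For the change from 0 h to 24 h, 0 of 16182 genes were called (0%), with 467 at an unadjusted p under 0.05, none of them among the 10, and the log2 differences ran from -0.62 for *Ltb* to 0.048 for *Ccl22*. Without any single library, that of *Ltb* lay between -0.92 and -0.24. For the change from 24 h to 48 h, 0 of 15844 genes were called (0%), with 1158 at an unadjusted p under 0.05, of which 1, *Ltb*, was among the 10. The time comparisons of the 2 genotypes share no libraries, whereas the differences at 24 h enter both steps.

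Other secreted mediators were measured with the same test. Of the 35 other cytokine genes tested in control cells, 5 rose and 8 fell from 0 h to 24 h, with a median log2 fold change of -0.019, beside 26.7% of all genes called higher and 30.7% lower. *Mif*, the macrophage migration inhibitory factor, rose from 137.50 to 145.50 FPKM at 0 h to 662.85 to 761.44 FPKM at 24 h (log2 fold change 2.31, limma adjusted p = 5.88e-06), and *Ebi3*, a subunit of IL-27 and IL-35, rose by 1.16 on the log2 scale (limma adjusted p = 0.00150). *Tgfb3* (log2 fold change -1.78, limma adjusted p = 0.00932), *Flt3l* (-1.49, limma adjusted p = 0.000119) and *Il12a*, the other subunit of IL-35 (-0.53, limma adjusted p = 0.0198), fell. Of 20 other chemokine genes tested, 3 rose and 5 fell, beside the same shares, and of these 8 only *Ccl5* and *Ccl27a* had a mean of at least 1 FPKM. *Ccl5*, which encodes another chemokine for T cells, rose from 2.74 to 3.44 FPKM at 0 h to 7.90 to 11.15 FPKM at 24 h (log2 fold change 1.35, limma adjusted p = 0.000376), opposite to *Ccl3* and *Ccl4*, and *Ccl27a* fell by 1.26 on the log2 scale (limma adjusted p = 9.11e-05). In each genotype comparison 0 genes of both lists were called.

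Receptors for the 10 mediators fell from 0 h to 24 h where they passed the test. Of 17 receptor genes tested in control cells, 0 rose and 9 fell from 0 h to 24 h, with a median log2 fold change of -0.65, beside 26.7% of all genes called higher and 30.7% lower. In B-CKO cells 0 rose and 10 fell, with a median of -0.37, beside 27.5% and 32.3% of all genes. From 24 h to 48 h, 2 of 16 receptor genes rose and 2 fell in control cells, beside 20.1% of all genes called higher and 24.8% lower. In B-CKO cells 4 of 16 rose and 2 fell at this step, beside 21.7% and 24%, so that the share that rose was near that of all genes. *Tgfbr2*, the ligand-binding receptor of TGF-β1, went from 88.18 to 95.93 FPKM to 37.57 to 41.42 FPKM in control cells (log2 fold change -1.22, limma adjusted p = 1.77e-05). *Il6ra*, the IL-6 receptor, fell by 1.52 on the log2 scale (limma adjusted p = 3.93e-05), and *Il6st*, its signalling subunit, fell by 1.72 (limma adjusted p = 0.0392), with values at 0 h as far apart as 4.24 and 26.54 FPKM. Of 11 genes for the processing and presentation of TNF and TGF-β1, 1 rose and 5 fell, beside the same shares of all genes in control cells. *Lrrc32*, which encodes GARP, the surface anchor of latent TGF-β1, rose from 0.49 to 1.09 FPKM to 4.19 to 5.76 FPKM in control cells (log2 fold change 1.79, limma adjusted p = 0.000219), whereas *Nrros*, another such anchor (-1.38, limma adjusted p = 3.25e-05), and *Rhbdf1* (-1.85, limma adjusted p = 0.000519) and *Rhbdf2* (-1.39, limma adjusted p = 0.000341), cofactors of the TNF sheddase, fell.

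Regulators of cytokine messages and genes changed from 0 h to 24 h and were not called between genotypes. Of 14 factors that control decay or stability of cytokine mRNA, 3 rose and 10 fell from 0 h to 24 h in control cells, with a median log2 fold change of -0.84, beside 26.7% of all genes called higher and 30.7% lower. *Zfp36*, which encodes tristetraprolin, a protein that targets *Tnf* mRNA for decay, went from 470.36 to 839.13 FPKM to 39.28 to 44.70 FPKM (log2 fold change -3.88, limma adjusted p = 2.06e-05), and its paralogs *Zfp36l1* (-2.22, limma adjusted p = 0.000226) and *Zfp36l2* (-2.96, limma adjusted p = 6.81e-05) fell too. *Hnrnpd* (1.24, limma adjusted p = 1.61e-05), *Elavl1* (1.20, limma adjusted p = 0.000181) and *Khsrp* (0.84, limma adjusted p = 0.000246), other RNA-binding proteins of this kind, rose. Of 20 transcription factor genes, 8 rose and 11 fell, beside the same shares. *Batf* (log2 fold change 3.87, limma adjusted p = 5.17e-06), *Nfil3* (1.20, limma adjusted p = 0.00363) and *Prdm1*, the driver of plasma cells (1.13, limma adjusted p = 0.0108), had the largest rises on the log2 scale, and *Fos* (-7.55, limma adjusted p = 4.97e-06), *Jun* (-4.06, limma adjusted p = 5.88e-06) and *Cebpb* (-3.78, limma adjusted p = 1.10e-05) the largest falls. *Fos*, *Jun* and *Zfp36* are early response genes, and they were high at 0 h, before LPS. Of the 16 immediate early genes, 1 was called between genotypes, *Dusp2*, which encodes a phosphatase of MAP kinases, at 47.41 to 49.17 FPKM in control cells and 39.31 to 40.66 FPKM in B-CKO cells at 24 h (log2 fold change -0.26, limma adjusted p = 0.0389). Over all genes, 15 of 15104 (0.0993%) were called at 24 h. How the *Dusp2* call depends on the setting was not examined. In B-CKO cells at 24 h, *Zfp36* had a log2 fold change of -0.28 (limma adjusted p = 0.0904) against control.

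Genes with the most similar course over the 18 libraries were sought for each of the 10 among 9997 genes whose mean reached 1 FPKM, by Pearson correlation of log2(FPKM + 1). Since the libraries fall into 3 times that differ in most genes, high values are common, and they describe the course only. The closest genes were *Micos10* (r = 0.9934) and *Cox7a2* (r = 0.9919) for *Il10*, *Nolc1* (r = 0.9940) and *Mrpl19* (r = 0.9919) for *Il6*, and *H2-Oa* (r = 0.9960) and *Blk* (r = 0.9956) for *Tgfb1*. In the TNF family they were *Ifi47* (r = 0.9804) and *Thumpd3* (r = 0.9781) for *Tnf*, *Trim5* (r = 0.9879) and *Lyl1* (r = 0.9830) for *Lta*, and *Ankrd13d* (r = 0.9924) and *Tle5* (r = 0.9901) for *Ltb*. Among the chemokines they were *Nemp2* (r = 0.9907) and *Cbx7* (r = 0.9892) for *Ccl3*, *Crebl2* (r = 0.9901) and *Galt* (r = 0.9894) for *Ccl4*, *Mrpl19* (r = 0.9939) and *Rsl1d1* (r = 0.9918) for *Ccl22*, and *Spata5* (r = 0.9743) and *Txnrd3* (r = 0.9731) for *Cxcl10*. *Mrpl19*, which encodes a mitochondrial ribosomal protein, was among the closest genes of both *Il6* and *Ccl22*.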

How the data were processed

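RNA-seq of splenic B cells was deposited as 1 table of FPKM values with 2 decimals for 16545 genes by NCBI gene ID in 18 libraries. The authors mapped reads to mm10 with bowtie2 and derived FPKM with Cufflinks and RSEM. The sample notes also name BWA, and no versions are given in the sources used here. Since FPKM are not counts, the number of fragments behind a value is unknown, and the DESeq2 test of the study was not repeated. The number of libraries limits the precision.

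Of the gene IDs, 16512 matched RefSeq symbols on GRCm38.p6. Values were transformed as log2(FPKM + 1) and tested with limma 3.58.1 (lmFit, eBayes with trend) in R 4.3.3 over genes above 0 FPKM in any library of the fit, with 6 libraries for a pair of groups and 12 for a genotype difference of a change. Fits were tested on simulated data. P-values measure the spread between 3 mice per group. The main fits had no replicate block, so at 0 h this spread includes what libraries of the same replicate number share. The 10 genes and all gene lists were chosen with earlier results of these data known. Of the lists of mediators, receptors, processing, mRNA decay and transcription factors, genes are named that have a mean of at least 1 FPKM and are among the 3 largest changes in either direction past the threshold in control 24 h against 0 h, or that pass it between genotypes. For likeness, the 2 genes with the highest correlation are named. Results for some genes are not reported here.

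Replicate numbers 1 to 3 recur in all groups. Deviations of same-numbered libraries from their group means correlated across genes at 0.857, 0.474 and 0.793 between genotypes at 0 h. Between genotypes at 24 h the values were 0.100, 0.224 and 0.090. In B-CKO cells they were 0.114, 0.182 and 0.118 between 24 h and 48 h and 0.049, 0.054 and 0.049 between 0 h and 24 h. In each of these comparisons every same-numbered pair was above every other pair, so that the numbers pair these libraries, though weakly outside 0 h. In the other comparisons this was not so, and the labels do not say whether a number is 1 mouse over time. Alternatives were a pseudocount of 0.1 FPKM, a mean of at least 1 FPKM, TPM, median-ratio scaling, a replicate block, 1 fit over all 18 libraries together and leaving out each library. Figures were made in Python 3.11.15 with matplotlib 3.10.9.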

Additional observations from a re-analysis of the deposited data

How the results depend on the processing

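The counts of the 10 genes called were within 1.5 times the main count in all alternatives but 3. Between genotypes at 24 h, 0 became 1 (*Ltb*) with a pseudocount of 0.1 FPKM and 2 (*Ltb* and *Tgfb1*) after removal of genes with a mean under 1 FPKM, a setting that tests fewer genes, and for control 48 h against 24 h, 8 became 5 in a single fit of all 18 libraries. Over all genes, these settings moved the calls from 15 to 46, from 15 to 388 and from 6820 to 4650. With the replicate block, 10 genes were called from 0 h to 24 h in each genotype, where 8512 of 15531 genes were called in control and 8911 of 15551 in B-CKO cells. From 24 h to 48 h it called 7 in control and 6 in B-CKO cells, where 6338 of 15178 and 6524 of 15253 genes were called. It called 0 of the 10 in every genotype comparison and difference of changes. The block lost *Ccl4* in control (adjusted p = 0.0643) and *Tnf* in B-CKO cells (adjusted p = 0.0610) in limma, and moved the calls over all genes between genotypes at 24 h from 15 to 5 and at 48 h from 7 to 3. Rescaling to TPM shifted the median log2 fold change from 0 h to 24 h by -0.153 in control and -0.152 in B-CKO cells, and the 10 calls stayed in each. The directions that turned were of log2 fold changes far from the threshold: *Lta* between genotypes at 0 h (-0.002 with TPM), *Il10* in control 48 h against 24 h (-0.005 with TPM) and the genotype difference of *Ccl22* from 0 h to 24 h (-0.35 with a pseudocount of 0.1 FPKM, -0.066 with TPM). Without replicate 1 of each genotype at 0 h, which was chosen after seeing the data, *Lta* between genotypes at 0 h (-0.004) and the genotype difference of *Tnf* from 0 h to 24 h (0.008) turned as well. The cause was not tested.

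Leaving out 1 library at a time turned the direction of these log2 fold changes, none of them called with all libraries. Between genotypes at 0 h the ranges were -0.50 to 0.076 for *Tnf*, -0.18 to 0.075 for *Il10*, -0.38 to 0.39 for *Lta*, -0.23 to 0.33 for *Ccl3*, -0.34 to 0.34 for *Ltb*, -0.028 to 0.091 for *Il6* and -0.017 to 0.35 for *Ccl4*, which was 0.38 without replicate 1 of both genotypes. At 24 h they were -0.083 to 0.083 for *Il6*, -0.006 to 0.38 for *Ccl22*, -0.082 to 0.10 for *Cxcl10* and -0.33 to 0.006 for *Ccl4*, and at 48 h -0.096 to 0.074 for *Tnf*, -0.25 to 0.071 for *Ccl3*, -0.054 to 0.12 for *Ccl4* and -0.23 to 0.056 for *Ccl22*. In control 48 h against 24 h they were -0.11 to 0.12 for *Il10* and -0.32 to 0.006 for *Ccl3*. For the genotype difference from 0 h to 24 h they were -0.23 to 0.029 for *Il10*, -0.40 to 0.16 for *Ccl3*, -0.33 to 0.25 for *Tnf*, -0.66 to 0.11 for *Lta*, -0.16 to 0.22 for *Ccl22* and -0.14 to 0.049 for *Il6*, and from 24 h to 48 h -0.17 to 0.15 for *Ccl3*, -0.045 to 0.17 for *Lta* and -0.001 to 0.33 for *Ccl4*.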
